A study of Mus musculus with 60 samples.

Results

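Dye-retaining and dye-diluted PyMT-Bo1 breast cancer cells from mouse bone were compared after the cells with an active division program at harvest had been set aside. A cell was kept as non-cycling when 2 or fewer of the 5 genes Mki67, Top2a, Cdk1, Birc5 and Ccnb2 had at least 10 estimated counts in it. This left 16 of 60 cells, 13 that had retained the dye (DiD+) and 3 that had not (DiD-). The other 44 cells, 19 DiD+ and 25 DiD-, are called cycling. The 5 genes chose the cells, so their levels and the share of cells kept are a description. Of 32 DiD+ cells 40.6% were kept, against 10.7% of 28 DiD- cells. Just inside the threshold, with exactly 2 of the 5 genes, were 5 DiD+ and 2 DiD- cells, and just outside it, with 3, were 4 of each. No DiD- cell and 3 DiD+ cells had none of the 5 genes at 10 counts. Among the 3 DiD- cells, cell 71 carried 240 counts of Cdk1 alone, cell 85 carried 254 of Birc5 and 387 of Ccnb2, and cell 89 carried 115 of Top2a and 368 of Cdk1.

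PyMT-Bo1 is a mammary tumor line of C57BL/6 mice, and all its cells here carried firefly luciferase (Luc2), EGFP, a mApple-tagged histone and the surface protein Thy1.1. The line was loaded in culture with the membrane dye DiD, which is shared out at each division, and was injected into the heart of female C57BL/6J mice of 8 to 10 weeks. Both groups came from the same pooled femurs and tibias of 5 mice, taken on day 11, so DiD+ and DiD- cells had the same genotype, injection, host and time and differed in the dye gate. Cells were enriched on Thy1.1, sorted as CD45- and DAPI-, and placed 1 per well, and full-length cDNA with spike-in RNA was sequenced. Each deposited sample is 1 cell, and no mouse is named for any of them. Each group is therefore 1 sample with no replicate, no test between groups was run, and every ratio below compares these cells and not the conditions.

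Dye retention records the past of a cell, since DiD falls with each division, whereas Mki67, Top2a, Cdk1, Birc5 and Ccnb2 report the S, G2 and M phases at the moment of harvest. A cell can be dye-poor and resting because it divided earlier and then stopped, and it can be dye-rich and about to divide. Resting cells are usually held in G1 or G0 by inhibitors of the cyclin-dependent kinases (CDKs) and by pocket proteins of the Rb family, and tumor cells at rest in bone are known to meet matrix proteins, TGF-beta family ligands and interferon.

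The 13 DiD+ cells held 3209508 to 5588437 counts on mouse genes and the DiD- cells 4343791 (cell 71), 4016114 (cell 85) and 4553435 (cell 89), or 57365876 and 12913340 counts in all. Luc2 and EGFP were detected in all 16 cells, and mApple in 11 of 13 DiD+ cells (all but cells 19 and 29) and in all DiD- cells, at 49.7 against 101.5 CPM. The epithelial markers were detected only as Krt8 and Krt18. Counts per spike-in count ran from 14.3 to 74.1 (median 36.8) in DiD+ cells and were 66.2, 40.3 and 57.8 in DiD- cells. At least as many markers of a blood cell type were present as absent in 4 DiD+ wells and in no DiD- well. Cells 19, 21 and 37 had 13 of 13 macrophage or monocyte markers at 10 counts, cells 19 and 37 also had 5 of 7 erythroid markers, and cell 29 had 4 of 5 platelet markers. The summed macrophage level was 7983 to 8791 CPM (counts scaled to the same total in every cell) in cells 19, 21 and 37, 0 to 177 CPM in the other 10 DiD+ cells (of which cell 69 had 6 of the 13 markers), and 21.6, 127 and 0 CPM in cells 71, 85 and 89. Cells 71 and 85 each had 1 macrophage and 1 erythroid marker at 10 counts. These 4 wells are called blood wells, and many ratios are also given without them.

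The counts of all cells in a group were added up, scaled to CPM, and compared as the log2 ratio of DiD+ over DiD- after adding 1 CPM, which understates the ratio of low genes. A gene is called higher or lower at a 2-fold ratio, a log2 ratio of 1 or -1. Of 8934 genes that reached 10 CPM in either group, 1980 were called higher in DiD+ cells (percent called 22.2) and 1255 lower (14%), around a median log2 ratio of 0.06. This balance depended on the scaling, with 1338 higher and 2411 lower when each cell was divided by its spike-in total (median -0.45), and 1232 and 1703 from the medians over cells. Among 12047 genes that reached 1 CPM, the set the gene lists are read against, 32.8% were higher and 12.9% lower, with a median of 0.24. The cycling cells had far fewer such genes, 5.06% higher and 3.36% lower of 8680, and 10.5% and 6.25% of those at 1 CPM. With 3 cells on 1 side many genes had no count at all there. Of the higher genes 663 had 0 counts in the DiD- cells, and 618 of these 663 had counts in cycling DiD- cells. Intervals of summed counts cover counting error only and not the spread between cells or mice. The summed counts give a detection floor of 3 counts, which is 0.0523 CPM for the DiD+ group and 0.232 CPM for the DiD- group, and where 1 group had 0 counts the ratio is given as a bound against that floor. Such a bound covers counting error in these cells only, and not whether other cells of that kind carry the gene.

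Phase genes other than the 5 of the rule did not separate these groups. The S phase genes, which make and copy DNA, were called higher 9 times and lower 9 times among 41 measured, beside 32.8% and 12.9% of all genes. Their median log2 ratio was -0.22, beside 0.24 for all genes, and was above 0 without cell 89 (0.75). Their summed level ran from 413 CPM over a median of 1329 to 6248 CPM in DiD+ cells and was 1127, 1449 and 2784 CPM in cells 71, 85 and 89. The highest was cell 36, above the median of the cycling DiD+ cells (3261 CPM), so non-cycling is the name of the rule and not of a measured arrest. Cell 36 had 333.9 CPM of the helicase subunit Mcm3 and 895 CPM of Mcm7 and held 60.5% of all Mcm3 counts of the DiD+ group. Mcm3 reached 48 CPM over the DiD+ cells and 0.232 CPM over the others (3 counts, ratio 207 with a counting interval of 70.6 to 1003). In cycling cells the log2 ratio of Mcm3 was -1.34. Mcm6, another subunit of the same helicase, was 0 to 862 CPM with a median of 94.9 in DiD+ cells and 302, 351 and 266 CPM in DiD- cells. DiD+ cells 36 and 83 were above all DiD- cells, the rest were below all of them, and the log2 ratio of the sums was -0.62.

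The G2/M list without the 5 genes was called higher 20 times and lower 5 times among 38 genes (median 1.07, and -0.20 with the cells of 3 genes added), beside 32.8% and 12.9% of all genes. Its summed level per cell overlapped, at 617 to 2735 CPM (median 1227) in DiD+ cells and 985, 742 and 1477 CPM in DiD- cells, and 12 of its genes had 0 DiD- counts. The direction of those 12 was set by the 1 CPM limit, which they passed through DiD+ cells alone. Gtse1, a regulator of p53 and microtubules, was in 7 of 13 DiD+ cells and 0 of 3 DiD- cells (at least 176-fold higher). The mitotic kinase Aurka was the reverse, with 0 counts in all 13 DiD+ cells and 29.2 and 33.2 CPM in cells 71 and 89, at least 412-fold lower in DiD+. Cenpf, a kinetochore protein, was counted in DiD- cell 85 alone at 70.5 CPM. In cycling cells the log2 ratio of Aurka was -0.40, under 2-fold.

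**Figure D1:**
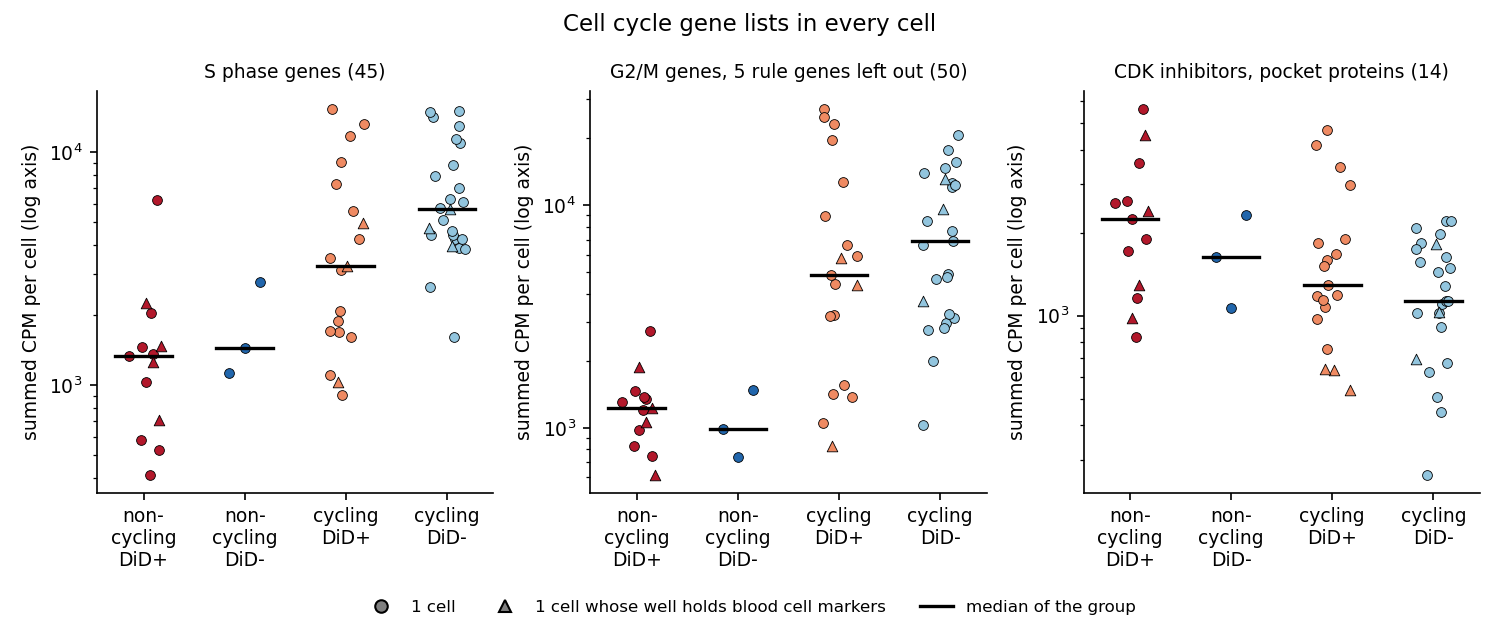
Summed CPM of 3 cell cycle lists in each cell (log axis), by group and by non-cycling or cycling; each mark is 1 cell, triangles are wells with blood cell markers and bars are medians. Non-cycling DiD+ cells span 413 to 6248 CPM for S phase genes and include the DiD- range of 1127 to 2784 CPM.

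Of 12 CDK inhibitors, pocket proteins and growth arrest genes measured, 4 were called higher and 1 lower, a share near that of all genes (32.8% and 12.9%), with a median of 0.95. Without the blood wells 6 of 12 were higher and none lower (median 0.92), beside 31.1% and 13.7% of all genes. Cdkn1a, the p21 inhibitor of CDKs, was 108 to 2501 CPM (median 450) in DiD+ cells and 430, 188 and 402 CPM in DiD- cells. The groups overlapped, and the log2 ratio of the sums was 1.34, with 0.63 in cycling cells and 0.16 from the medians over cells. Cdkn2c, the p18 inhibitor of CDK4 and CDK6, was in 9 of 13 DiD+ cells with a median of 27.5 CPM and lacked any count in DiD- cells (at least 126-fold higher). Rb1, the retinoblastoma protein, stood at 31.1 against 6.50 CPM (2.10), although cell 43 held 57.1% of its counts. Btg2, an antiproliferative target of p53, was 348, 332 and 359 CPM in DiD- cells against a DiD+ median of 191 CPM, and its log2 ratio was -0.38.

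Among genes with 10 counts in at least 7 DiD+ cells, the 12 most above DiD- cells in all settings with a cell or the blood wells left out were Il33, Spry1, Tgtp2, Rgs2, Dus1l, Isg15, Ankrd13a, Nxt2, Saysd1, Swap70, Morc2a and Siae. They were picked for this ratio, so their levels describe and do not test. Il33, an alarmin cytokine kept in the nucleus, lies at chr19:29925114-29960718 (GRCm38, plus strand). It had at least 10 counts in 9 of 13 DiD+ cells, from 0 over a median of 164 to 2344 CPM (cell 41), and 0, 0.249 and 0 CPM in DiD- cells. All DiD- cells thus sat at or below 1 count, while 4 DiD+ cells were at 0. Summed, Il33 was at 382 CPM (95% interval 377 to 387) against 0.0774 CPM (0.00196 to 0.431), a ratio of 4932 with a counting interval of 885 to 194805.

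Spry1, a feedback inhibitor of receptor tyrosine kinase signaling to ERK, was in 7 of 13 DiD+ cells with up to 1150 CPM (cell 29) and in 0 of 3 DiD- cells (at least 955-fold higher). Rgs2, which quenches G protein signaling, was in 11 of 13 DiD+ cells, at 67.3 CPM in the median and up to 324 CPM, against 0, 0.249 and 0.220 CPM in DiD- cells. Its ratio was 727 (counting interval 201 to 6003). Dus1l, a tRNA dihydrouridine synthase, was 83.9 CPM in the median DiD+ cell and up to 215 CPM, with 0 DiD- counts (at least 363-fold higher). The interferon-induced GTPase Tgtp2, which has a near-identical copy that RSEM can split reads with, had 82% of its DiD+ counts in cell 68.

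Most of these 12 genes did not differ by 2-fold in the cycling cells. Of the 12, 8 had 0 DiD- counts, 9 had the same direction in cycling cells and 3 were 2-fold higher there, with a cycling median of 0.33. Il33 kept the widest gap, at 208 against 19.2 CPM (log2 ratio 3.37), although it had 10 counts in 5 of 19 DiD+ and in 12 of 25 DiD- cycling cells. The ubiquitin-binding protein Ankrd13a was even there, at 74.1 and 74.7 CPM, with 15 and 22 cells positive. Nxt2, an mRNA export cofactor, was 45.2 against 34.9 CPM in cycling cells.

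Among the 12 genes most below, chosen the same way, were Ubox5, Tbx18, Zfp692, Top1mt, Zrsr1, Aurka, 6030458C11Rik, Fbxl12, Senp1, Plcxd2 and Letmd1. Their levels were low, and each rested on 2 or 3 DiD- cells. Letmd1, a mitochondrial membrane protein, was in all DiD- cells, at 41.4, 21.9 and 70.1 CPM, and ran from 0 over a median of 0 to 19.2 CPM in DiD+ cells (log2 ratio -3.99). Ubox5, a ubiquitin ligase, had 58.5, 0 and 41.3 CPM in DiD- cells and 0 counts in DiD+ cells, at least 655-fold lower. Senp1, which removes SUMO from proteins, was 64.2, 68.7 and 0 CPM against a single DiD+ cell (22.6 CPM in cell 75). In cycling cells 9 of these 12 had the same direction, 4 were 2-fold lower, and the median was -0.33. Ubox5 stood at 1.76 against 12.5 CPM there, and Letmd1 at 19.5 and 19.6 CPM.

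Separation cell by cell was rare. Every DiD+ cell was above every DiD- cell in 3 of 8934 genes (percent called 0.0336) and below every DiD- cell in 16 (percent called 0.179), and none of these 19 genes was 2-fold the same way in cycling cells. They are named after their values were seen. With 13 cells set against 3, some of 8934 genes fall in such an order by the spread of single cells alone. The 19 genes are therefore a description and no evidence of a difference. The 3 above were the protein phosphatase Ppm1a, at 22.1 to 115 CPM (median 45.1) against 20.7, 0 and 15.4 CPM, the homeobox factor Irx5 and the unnamed gene ENSMUSG00000095041. The 16 below were Loxl3, Braf, Thop1, Elp2, Riok3, R3hcc1l, Chuk, Tm9sf2, Fggy, Tsc22d4, Copb1, Rcbtb1, Letmd1, Pyroxd1, Zfp24 and Hmgcs1. Loxl3, a lysyl oxidase that crosslinks matrix, was 82.7 to 837 CPM (median 523) in DiD+ cells and 1776, 1052 and 1443 CPM in DiD- cells. Its log2 ratio was -1.53, and -0.62 in cycling cells. Braf, the kinase that activates MEK, was 0 to 16.8 CPM against 28.3, 19.9 and 61.3 CPM.

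**Figure D2:**
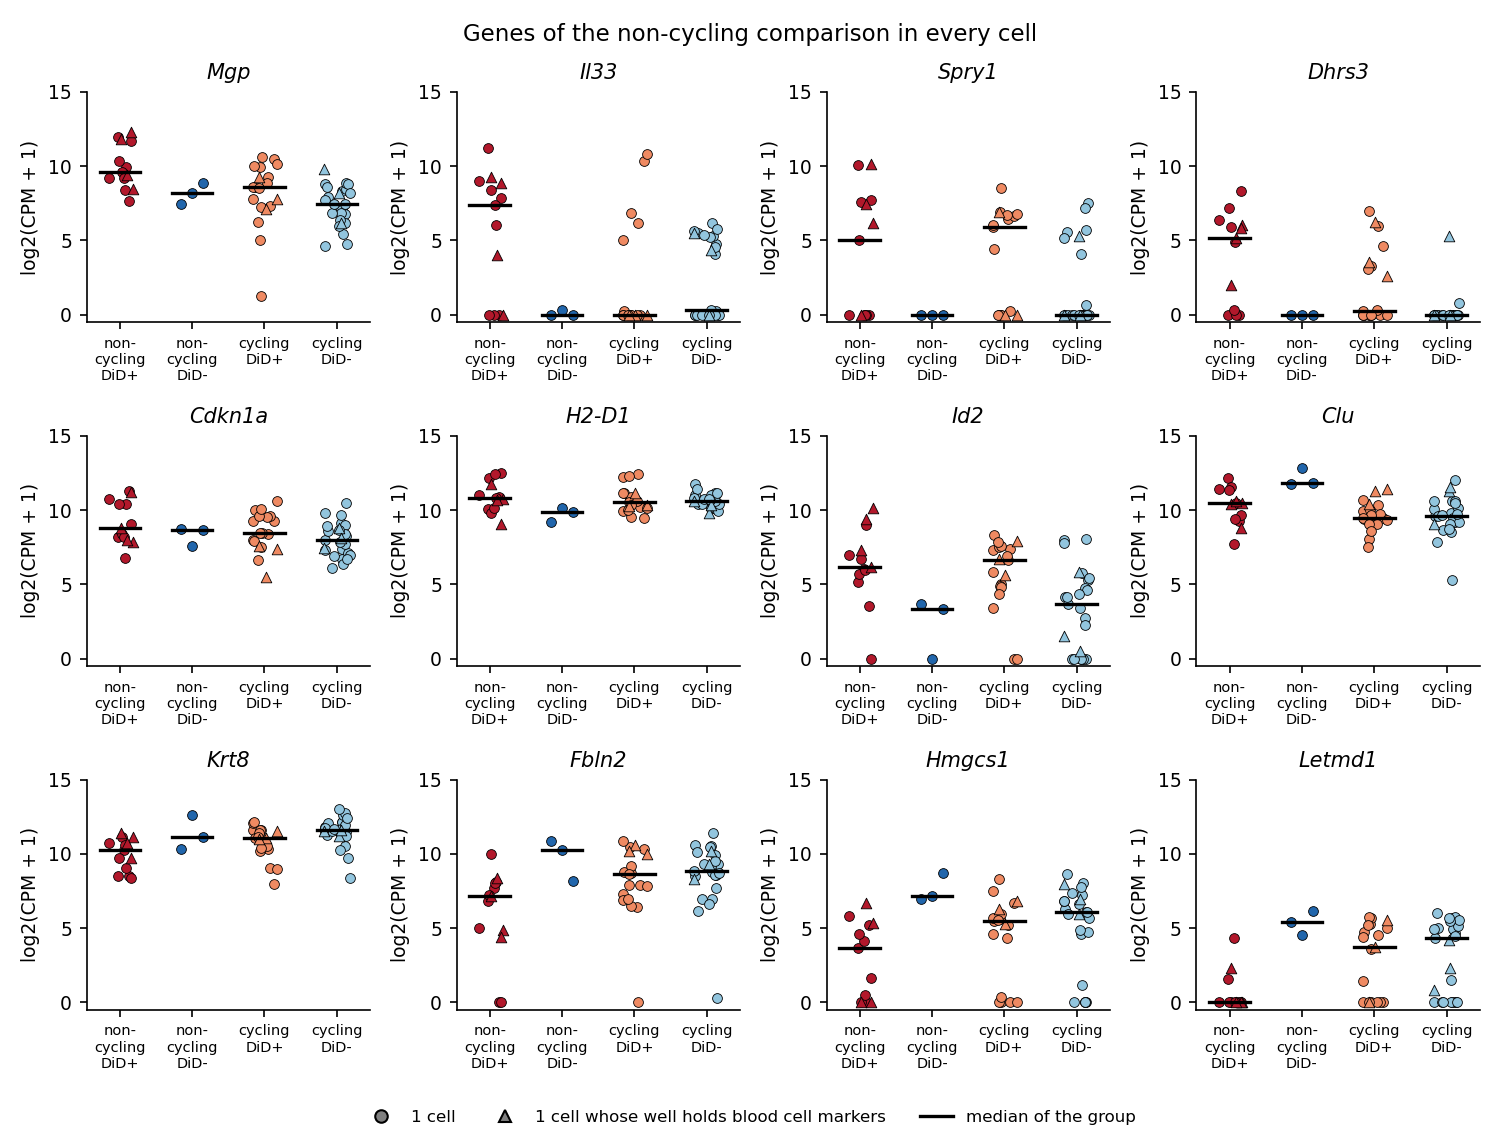
log2(CPM + 1) of 12 genes in each cell, by group and by non-cycling or cycling; each mark is 1 cell, triangles are wells with blood cell markers and bars are medians. Il33 and Spry1 sit at or near 0 in the 3 non-cycling DiD- cells, and Hmgcs1 and Letmd1 are higher in each of these cells than in any non-cycling DiD+ cell.

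The study named 12 further genes as higher in DiD+ cells or followed them, and these were chosen on these samples, so their direction here is not independent evidence. All but Pdgfrb were called 2-fold higher in non-cycling cells (11 of 12, median 3.60), beside 32.8% of all genes. In cycling cells 9 of 12 were higher (median 1.87), beside 10.5% of all genes. Of the 12, 4 had 0 DiD- counts in non-cycling cells, so their direction there was set by the 1 CPM limit. The summed level of the 12 genes was 205 to 9216 CPM (median 1372) in DiD+ cells and 344, 384 and 517 CPM in DiD- cells. Only cell 36 of the 13 DiD+ cells was below the highest DiD- cell. Without the blood wells the median was 3.81.

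Mgp, the matrix Gla protein that restrains mineral deposition, was in every cell, at 204 to 5151 CPM (median 776) in DiD+ cells and 171, 298 and 475 CPM in DiD- cells. Cells 19, 36 and 83 lay within the DiD- range. Summed, Mgp was at 1630 CPM (95% interval 1620 to 1641) against 318 CPM (308 to 328), for a log2 ratio of 2.36 beside 1.28 in cycling cells. The blood wells held 45.1% of its DiD+ counts, and the ratio was 2.07 without them. Mgp lies at chr6:136872435-136875823 (GRCm38, minus strand).

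A pair of retinaldehyde enzymes had no count in DiD- cells. Dhrs3, which turns retinaldehyde back to retinol, was in 9 of 13 DiD+ cells at a median of 35.4 CPM and up to 325 CPM (cell 68), with 0 DiD- counts, at least 236-fold higher. In cycling cells Dhrs3 was in 8 of 19 DiD+ and 1 of 25 DiD- cells, at 15.7 against 1.04 CPM. Aldh1a1, which oxidizes retinaldehyde to retinoic acid, was in 5 of 13 cells, with 297 CPM in cell 43 and 217 CPM in cell 29. No DiD- cell had a count of Aldh1a1, which puts DiD+ at least 205-fold above, and none of 25 cycling DiD- cells had one against 25.9 CPM in cycling DiD+ cells. Aldh1a1 shares much sequence with its neighbour Aldh1a7, which stood at 12.5 CPM against 0, so reads may be split between them. Other retinoid genes did not go the same way: of 14 measured, 5 were called higher and 2 lower, beside 32.8% and 12.9% of all genes. Their median was 0.54, 0.70 without the blood wells and -0.23 from the medians over cells. The receptor Rara was 89.3, 43.3 and 141 CPM in DiD- cells against a DiD+ median of 8.10 CPM (log2 ratio -1.69), and the retinol dehydrogenase Rdh10 had a log2 ratio of -1.80.

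Gas6, the ligand of the TAM receptors (Tyro3, Axl and Mertk), had 10 counts in 6 of 13 DiD+ cells, with a highest value of 163 CPM in cell 43, and 1 count in the DiD- cells. The ratio of Gas6 was 373 (counting interval 66.8 to 14724), and in cycling cells it stood at 30.1 CPM against 0. Postn, periostin, was confined to 4 DiD+ cells, with 2714 CPM in cell 29, 2610 in cell 68, 2016 in cell 41 and 199 in cell 37, and had 1 DiD- count. Nr2f1, an orphan nuclear receptor known for a role in tumor dormancy, had 10 counts in 10 of 13 DiD+ cells and in DiD- cell 85, at a median of 17.5 CPM against 1.84, 13.9 and 0 CPM (log2 ratio 2.07, cycling 0.91). Mme, the surface peptidase neprilysin, was 68.8 CPM in the median DiD+ cell against 85.2, 0 and 0 CPM. Its log2 ratio of 1.46 became 0.85 at the lowest and 6.35 at the highest when single cells were left out, the latter without cell 71. Pdgfrb, a growth factor receptor, had a median of 4.16 CPM against 46.3, 71.5 and 38.2 CPM, although cell 41 with 378 CPM brought the log2 ratio of the sums to 0.34.

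The genes the study named as higher in DiD- cells gave no common direction in non-cycling cells. Of 4 measured, 1 was called higher and 2 lower (median -0.85, from -1.45 to 3.29 with single cells left out), beside 32.8% and 12.9% of all genes. Fgf13 was in cell 71 alone at 35 CPM and in no DiD+ cell. Bcat1, which transaminates branched-chain amino acids, had a log2 ratio of -0.06 in non-cycling and -1.15 in cycling cells. Lmnb1, lamin B1, was in DiD- cell 85 at 48.8 CPM and in 3 DiD+ cells (log2 ratio -1.65, and 2.37 without cell 85).

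Interferon response genes were higher in DiD+ cells as a list, with most of the level in few cells. Of 31 measured, 23 were called higher and none lower (median 2.95), beside 32.8% and 12.9% of all genes, and 15 of them had 0 DiD- counts (median 3.32 with those at their bound). Those 15 passed the 1 CPM limit through DiD+ cells alone, so their direction was set by that limit. Cell by cell the groups overlapped. The summed level was 335 to 18713 CPM (median 970) in DiD+ cells and 1005, 434 and 584 CPM in DiD- cells, so that 6 of 13 DiD+ cells were above every DiD- cell. Cell 68 held 18713 CPM and cell 21, a well with macrophage markers, 5001 CPM. The median was 1.82 without cell 68, 2.59 without the blood wells and 0.77 without both, a setting chosen after the values were seen. The part of macrophage RNA in the interferon values of cells 19, 21 and 37 was not tested. In cycling cells 18 of 30 genes were 2-fold higher (median 1.22, and 0.98 without blood wells), beside 10.5% of all genes.

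The sensors and effectors differed in how many cells carried them. Isg15, a ubiquitin-like protein joined to targets after interferon, had 10 counts in 9 of 13 DiD+ cells, at 0 over a median of 21.7 to 631 CPM, and no count in the DiD- group (at least 482-fold higher). Irf7, the transcription factor that amplifies type I interferon, was in 7 of 13 cells and in no DiD- cell (at least 307-fold higher), with 59.5% of its counts in cell 68. Ifit3, which acts with its relative Ifit1 on foreign RNA, was in 6 DiD+ cells and in no DiD- cell. Ifit1 was counted in DiD- cell 71, at 49.7 CPM. Irf9, Bst2 and Ifi35 were present in most cells of both groups, with log2 ratios of 0.61, 0.84 and 0.87. Ifit1, Ifit3 and Ifit3b, and the Oas genes, are close paralogs whose shared reads RSEM divides by estimate.

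Interferon-induced genes are known for the interferon-stimulated response element, a promoter site bound by interferon regulatory factors such as Irf9. Within 250 bases before the RefSeq start, GAAA and GAAA parted by any 2 bases, or TTTC and TTTC so parted on the other strand, were found in 13 of 23 matched members (percent 56.5) and in 978 of 32851 promoters in all (2.98). The members were chosen by name as interferon genes, so a high share describes the list and not these cells, and a match is letters in a window and not a bound site. The stretches of 3 of them are shown as the clearest cases among the genes described, from RefSeq on GRCm38.p6, with the motif in capitals and overlapping matches in Isg15 joined to 1 run. Isg15 is read at chr4:156200859-156200938 (minus strand), Ifit3 at chr19:34583349-34583428 (plus strand) and Ifit1 at chr19:34640759-34640838 (plus strand).
Isg15: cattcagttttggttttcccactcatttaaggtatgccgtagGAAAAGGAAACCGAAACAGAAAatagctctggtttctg
Ifit3: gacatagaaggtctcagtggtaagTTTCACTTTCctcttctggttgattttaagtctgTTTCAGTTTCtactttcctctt
Ifit1: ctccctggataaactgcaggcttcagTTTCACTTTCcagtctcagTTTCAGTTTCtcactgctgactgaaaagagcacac

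MHC class I and its peptide loading genes, which interferon also raises, were higher in 10 of 15 and lower in none, beside 32.8% and 12.9% of all genes. Their median was 1.40, 1.53 without blood wells and 0.67 without cell 68. H2-D1, a class I heavy chain, was 539 to 5717 CPM (median 1758) in DiD+ cells and 587, 1126 and 924 CPM in DiD- cells (log2 ratio 1.45, 1.6 without blood wells). B2m, the light chain, was 392 to 8111 CPM (median 959) against 531, 737 and 554 CPM (1.31). The immunoproteasome subunit Psmb8 had a log2 ratio of 2.23 and the peptide transporter Tap1 of 2.60, whereas the general chaperones Calr and Pdia3 were at -0.09 and -0.20. Class I genes are close paralogs, so single heavy chains are uncertain. In cycling cells 2 of 13 genes were 2-fold higher (median 0.54), beside 10.5% of all genes. The MHC class II genes had most of their level in the blood wells, where Cd74, the invariant chain, had 100% of its DiD+ counts. Without those wells 3 class II genes were measured and all were higher (median 3.08), at a summed 17.5, 67, 95.0 and 28.4 CPM in cells 41, 43, 76 and 83 against 0 in the DiD- cells. With 0 DiD- counts they passed the 1 CPM limit through DiD+ cells alone, so their direction was set by that limit.

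**Figure D3:**
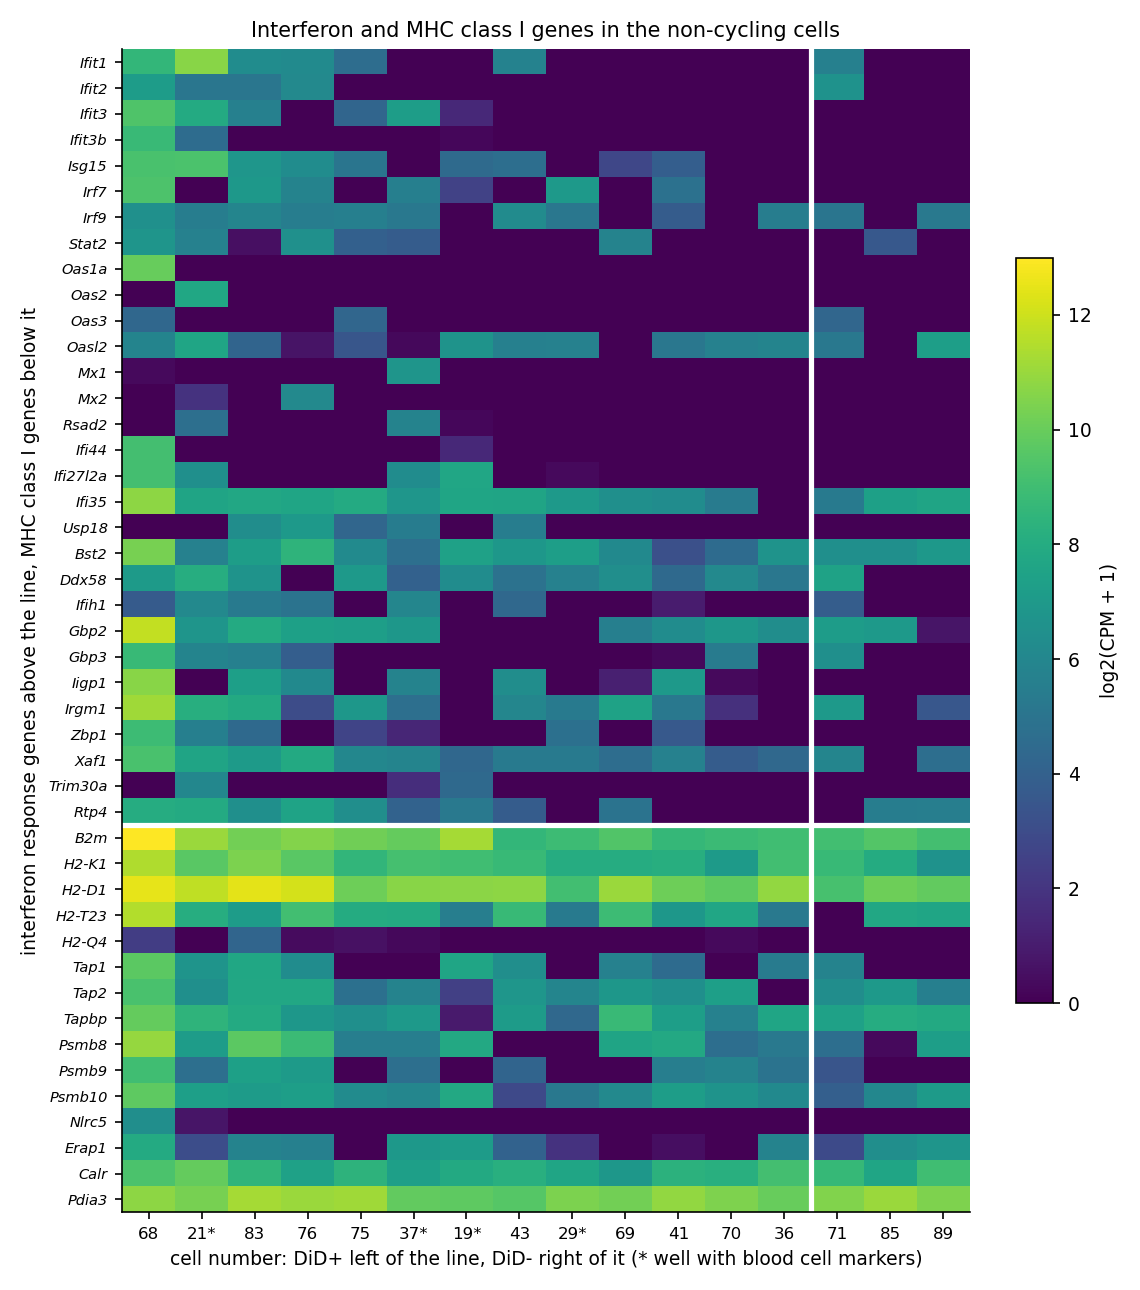
log2(CPM + 1) of the interferon response genes (upper block, 1 left out) and MHC class I genes (lower block) in the 16 non-cycling cells, DiD+ left and DiD- right of the white line; DiD+ columns are ordered by the summed interferon level and a star marks wells with blood cell markers. Cell 68 is bright in most rows, and cell 71 is the DiD- cell with the highest summed level, 1005 CPM.

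Secreted matrix genes were uneven between cells. The small leucine-rich proteoglycans, which bind collagen fibrils and growth factors, were higher in 6 of 7 and lower in none, beside 32.8% and 12.9% of all genes. Their median was 2.46, 2.95 without the blood wells, and 4.28 with genes at 0 at their bound. All 6 had 0 DiD- counts and passed the 1 CPM limit through DiD+ cells alone, so their direction was set by that limit and the median was 0.54 with 10 CPM added. Their summed level was 0 to 1805 CPM (median 56.1) in DiD+ cells and 0, 0 and 114 CPM in DiD- cells, the last all biglycan (Bgn). Ogn, osteoglycin, was in 5 of 13 DiD+ cells, with 1224 CPM in cell 68, 232 in cell 76, 170 in cell 69, 16.6 in cell 70 and 15.7 in cell 41, and none of these is a blood well. Ogn was at least 458-fold higher, and at least 10 counts were seen in 7 of 19 DiD+ and 2 of 25 DiD- cycling cells, at 35.2 against 0.685 CPM. Prelp, of the same family, was in 4 DiD+ cells, at least 164.9-fold higher, and was 27.7 against 0.00938 CPM in cycling cells. Osteoblast markers reached 3 of 6 in cell 76, no cell reached the threshold set for stromal markers, and the summed stromal list was 3.54 to 3848 CPM (cell 41) in DiD+ cells against 201, 77.2 and 275 CPM in DiD- cells. The part of stromal RNA in these values was not tested.

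Of 18 matricellular genes, secreted proteins that signal from the matrix, 10 were higher and 1 lower (median 1.21). Of 17 collagens 9 were higher and 2 lower (median 1.10). Both lists stand beside 32.8% and 12.9% of all genes. Of the collagens 6 had 0 DiD- counts and passed the 1 CPM limit through DiD+ cells alone. The direction of those 6 was set by that limit. But both list medians turned below 0 from the medians over cells, to -0.15 and -0.51. Ccn5, a growth-restraining member of the CCN family, was in 6 DiD+ cells and had 1 DiD- count. Its ratio was 4359 (counting interval 782 to 172168), with 71.9% of counts in cell 68. Spp1, osteopontin, was 274 to 31889 CPM (median 3799) against 679, 6712 and 4181 CPM, so the log2 ratio of 1.21 came from cells with very high values. Col3a1, a fibrillar collagen, had 79.1% of its counts in cell 41. Fbln2, an elastic fiber protein, went the other way, at 0 to 1018 CPM (median 143) against 1831, 1213 and 286 CPM (log2 ratio -2.49). Col18a1, a basement membrane collagen, was 53.1 to 1958 CPM (median 509) against 3378, 1472 and 586 CPM (-1.49). Fn1, fibronectin, was at -0.57.

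Of 6 keratin and epithelial junction genes measured, 1 was higher and 3 lower, beside 32.8% and 12.9% of all genes. Their median was -0.55, and -1.66 without the blood wells. Krt8, a keratin of simple epithelia, was 330 to 2766 CPM (median 1204) in DiD+ cells and 1303, 6227 and 2234 CPM in DiD- cells, and its partner Krt18 was 0 to 1417 CPM (median 430) against 1260, 3124 and 279 CPM. The log2 ratios were -1.26 and -1.45, and -1.66 and -1.98 without the blood wells, which held the highest DiD+ cell of each gene. In cycling cells they were -0.66 and -0.91. Clu, clusterin, a secreted chaperone, was 209 to 4632 CPM (median 1399) against 3418, 7396 and 3693 CPM. Only cell 41 of the 13 reached the DiD- range, and the log2 ratio was -1.53 beside -0.14 in cycling cells.

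Hmgcs1, which makes the HMG-CoA used for cholesterol, was 0 to 104 CPM (median 11.7) in DiD+ cells and 122, 143 and 413 CPM in DiD- cells, so the groups did not overlap. It is 1 of the 16 such genes of 8934 listed above, picked after the values were seen, so this separation only describes these cells. Summed, Hmgcs1 was at 23.3 CPM (95% interval 22 to 24.6) against 231 CPM (223 to 239), for a log2 ratio of -3.26, from -3.78 to -2.45 with single cells left out. The ratio was -0.51 in cycling cells. Among 21 cholesterol genes 5 were higher and 7 lower, beside 32.8% and 12.9% of all genes. Their median of -0.26 was 1.19 when only cells with 1 or fewer of the 5 genes of the rule were kept. Msmo1, a sterol oxidase, was at -2.34, the isomerase Idi1 at -1.65 and the demethylase Cyp51 at -1.51, whereas squalene epoxidase (Sqle) was at -0.43. The 5 called higher were Mvk and Mvd, kinase and decarboxylase of the mevalonate pathway, with 0 DiD- counts (at least 60.5-fold and 31.3-fold higher), the sterol enzymes Hsd17b7 (2.16) and Dhcr7 (1.30), and Lss, at 1.22 CPM against 0. Cell 71 was the lowest DiD- cell for most of these, as with Cyp51 at 12.4, 189 and 285 CPM. The cycling cells had no cholesterol gene past 2-fold. Of 15 members with a RefSeq promoter, Hmgcs1 alone held the sterol regulatory element TCACNCCAC or its other strand GTGGNGTGA within 250 bases of its start (percent 6.67), beside 346 of 32851 promoters (1.05). That share is a single promoter of a list chosen by name, and a match is letters in a window and not a bound site. Msmo1, Idi1 and Cyp51 had no match. The stretch is shown because it is the single match in this list, at chr13:119690186-119690250 (GRCm38.p6, plus strand), with the motif in capitals.
Hmgcs1: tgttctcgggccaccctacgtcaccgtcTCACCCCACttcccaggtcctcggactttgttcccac

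Signaling genes gave single differences. Id2, an inhibitor of basic helix-loop-helix factors and a target of BMP, was 0 to 1134 CPM (median 69.1) in DiD+ cells and 11.5, 0 and 9 CPM in DiD- cells. Its log2 ratio was 4.99, 3.73 without the blood wells and 1.22 in cycling cells. The TGF-beta and BMP list had 8 of 25 higher and 3 lower, near the shares of all genes, with a median of 0.29 that was below 0 from the medians over cells (-0.31), with spike-in scaling (-0.25) and without cell 85 (-0.08). Vcam1, an adhesion receptor for leukocyte integrins, was 0 to 2202 CPM (median 218) against 29.7, 85.9 and 11.6 CPM (3.93, and 2.56 without the blood wells), and was even in cycling cells at 167 and 160 CPM. Immediate early genes, which respond within minutes to growth factors and to handling, had 2 of 20 higher and 3 lower, beside 32.8% and 12.9% of all genes. Their median was -0.23, and 0.18 without cell 71. Egr1 was 0 to 3763 CPM (median 1189) against 4144, 4497 and 855 CPM (-1.36).

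**Figure D4:**
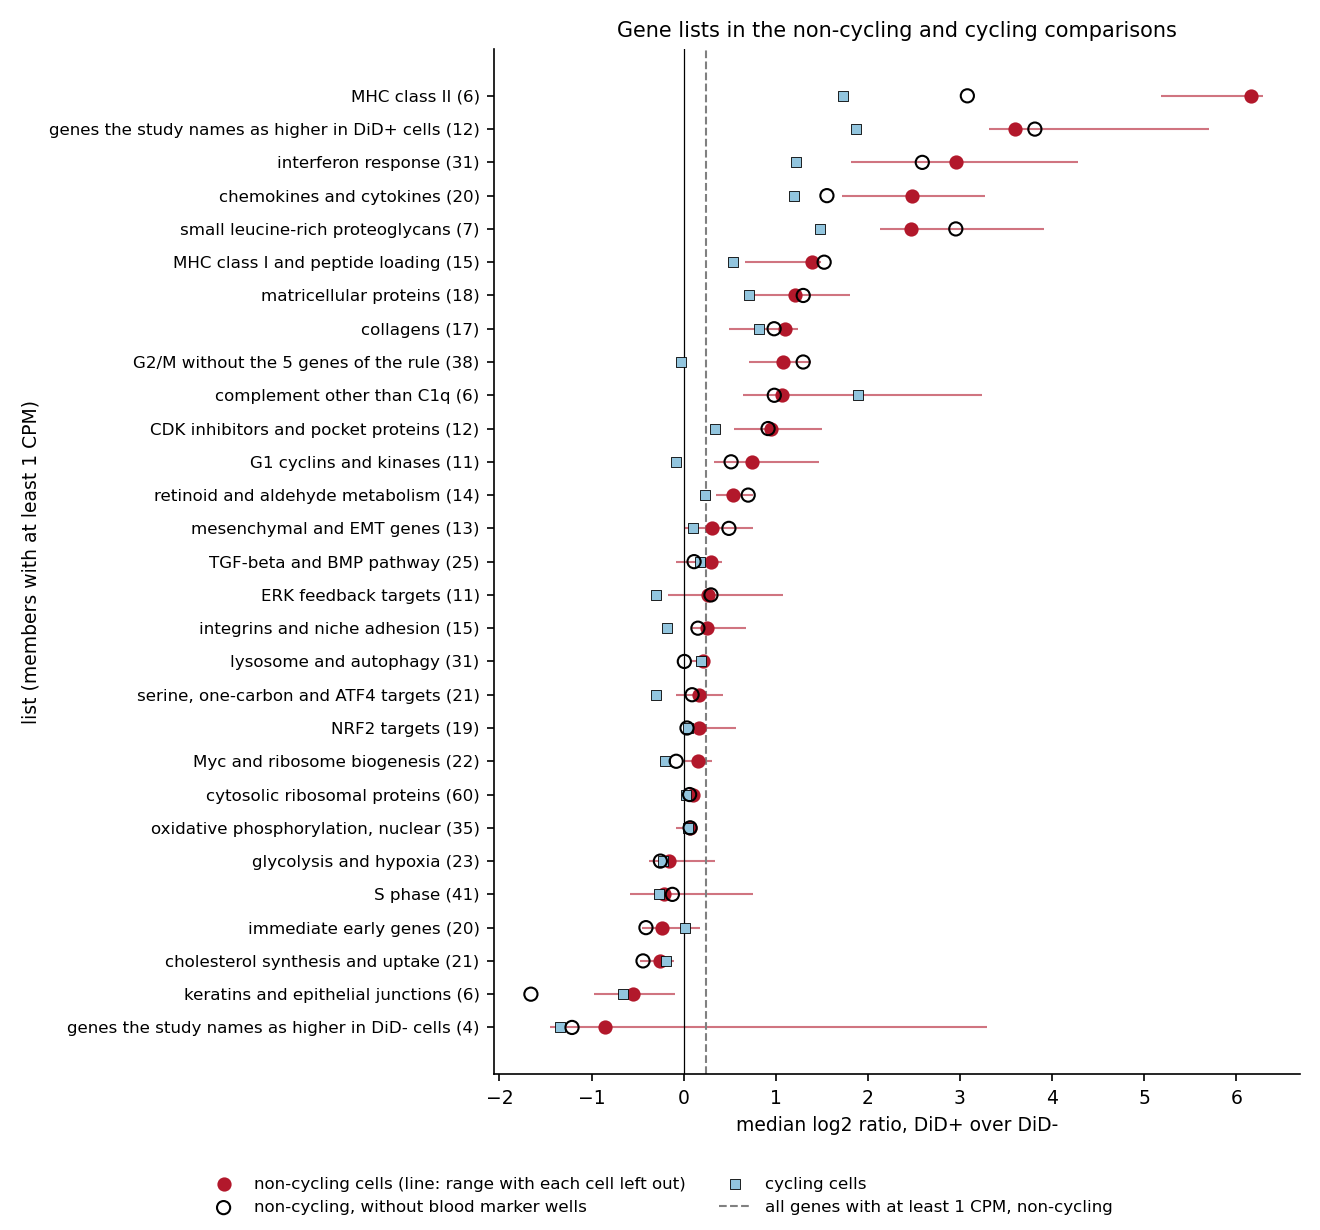
Median log2 ratio of DiD+ over DiD- for each gene list, in non-cycling cells (red, with the range over single cells left out), without wells with blood cell markers (open) and in cycling cells (blue squares); the dashed line is the median of all genes, 0.24. The interferon list lies at 2.95, 2.59 and 1.22, and the ribosomal proteins at 0.10 and 0.03 in non-cycling and cycling cells.

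The cycling cells are other cells from the same sort, so they share no cell with the comparison above, and their ratios were set beside it. Among 8072 genes that reached 10 CPM in both comparisons, 1593 were 2-fold higher in non-cycling DiD+ cells, and 185 of these were also 2-fold higher in cycling DiD+ cells. That is 11.6% of the 1593, beside 4.41% of all 8072, and 52.0% of the 356 genes higher in cycling DiD+ cells, beside 19.7% of all. Of 999 genes lower in non-cycling DiD+ cells, 73 were lower in cycling DiD+ cells. These are 7.31% of the 999, beside 2.63% of all, and 34.4% of the 212 lower in cycling cells, beside 12.4% of all, while 3.9% of the 999 went the other way past 2-fold. Without the blood wells, a setting chosen after the values were seen, 9.46% of the genes higher in non-cycling DiD+ cells were higher in cycling ones beside 4.2% of all, and 8.28% of the lower were lower beside 3.03%. Most higher genes thus lay under 2-fold in cycling cells, and 3.52% went the other way past 2-fold.

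A set of 90 genes was 2-fold higher in both. They stayed so in the non-cycling cells with each cell left out, and in both comparisons without wells with blood cell markers. On the same terms 20 genes were 2-fold lower. These were picked after the values were seen. Besides Aldh1a1, Prelp, Ogn, Gas6, Ccn5, Postn, Il33 and Dhrs3, the higher set held Serpine2, an inhibitor of thrombin and plasminogen activators, at 659 CPM against 0 in non-cycling and 60.2 against 4.26 CPM in cycling cells. Serpine2 had 10 counts in 5 of 13 non-cycling DiD+ cells. Its log2 ratio there fell from 9.37 to 5.96 with a single cell left out. The higher set also held the proapoptotic Bcl2l11 (32.9 against 0 and 14.8 against 2.36 CPM), the chaperone Cryab (81.8 against 19.1 and 48.8 against 16.4 CPM), the receptor Notch1 (42.4 against 0.0774 and 13.9 against 5.55 CPM) and the transcription factor Foxo1 (17.6 against 0 and 15 against 6.93 CPM). The set also held genes of myeloid cells, with Lyz2, lysozyme, at 64.7 against 0 and 514 against 1.5 CPM, the chemokines Ccl6 and Ccl9, and the phosphatase Ptpn6. The blood wells held 97.5% of the Lyz2 counts of non-cycling DiD+ cells. Without wells with blood cell markers the log2 ratio of Lyz2 was 1.75 in non-cycling and 1.91 in cycling cells. The part of blood cell RNA in this set was not tested. Interferon genes were present, with Irf7, Isg15, Ifit1, Ifit3, Usp18 and Xaf1. The lower set held Fpgs, which traps folates in the cell, at 32.9 against 155 CPM and 17.7 against 73 CPM, the DNA damage kinase Atm at 9.55 against 48.2 and 3.97 against 13.3 CPM, the collagen prolyl hydroxylase subunit P4ha3 at 1.67 against 28.4 and 6.64 against 31.7 CPM, and Ubox5.

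**Figure D5:**
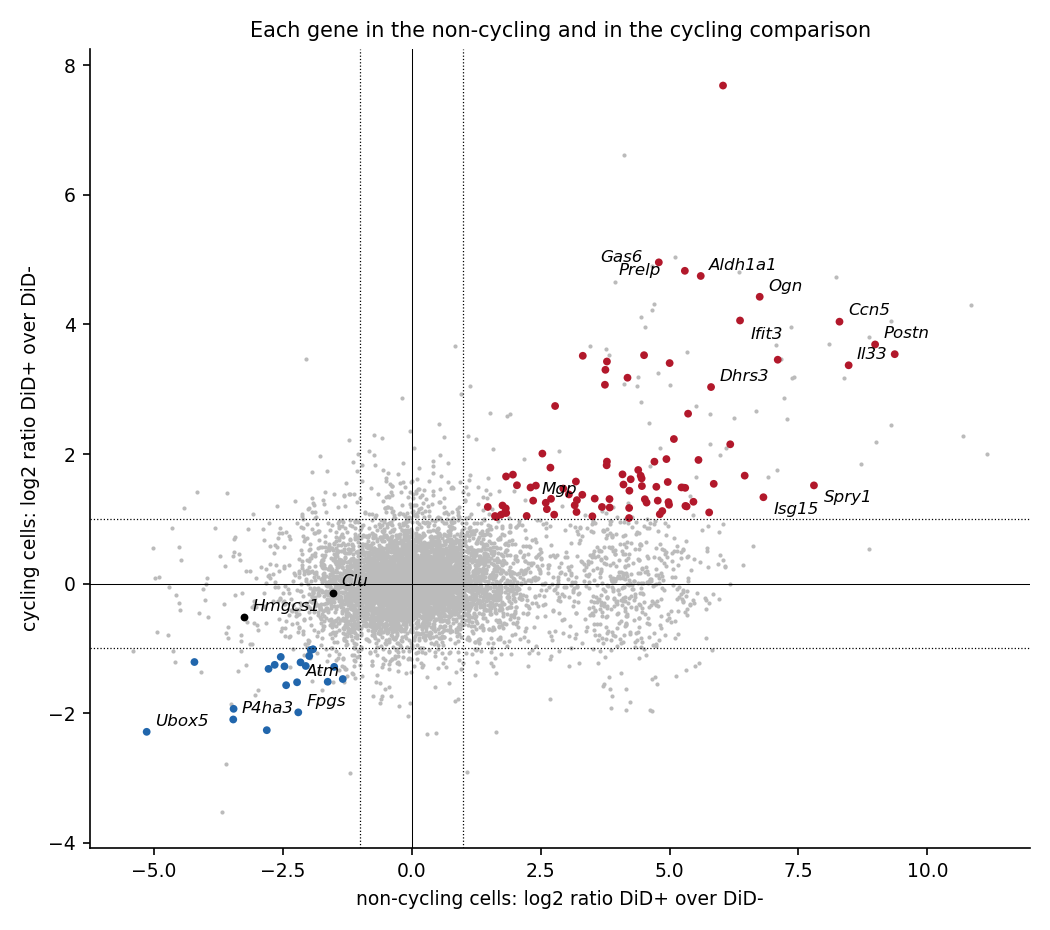
Log2 ratio of DiD+ over DiD- in non-cycling cells (x) and in cycling cells (y) for 8072 genes (grey), with the 90 genes higher and 20 lower in both in red and blue and with 2-fold marked by dotted lines. Most genes past 2-fold on x lie within 2-fold on y, while Gas6, Aldh1a1, Ogn, Ccn5, Postn and Il33 are far out on both axes.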

How the data were processed

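Single PyMT-Bo1 cells sorted from mouse bone were profiled by full-length RNA sequencing, 1 cell per sample, and 60 cells were used. The authors aligned the reads with STAR to GRCm38 (mm10) with the transgenes added and deposited RSEM estimated counts per gene, whose versions and annotation release are not given in the sources used here. They also deposited denoised values from BASiCS, a signal normalized over all cells with the spike-ins, which served as an alternative only. Of the estimated counts 96.6% were whole, and all were rounded.

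Cells were grouped by the labels and split by the rule on 5 genes. Counts over 47729 mouse genes, without the 92 spike-ins and 4 transgenes, were summed per group and scaled to CPM, and DiD+ was divided by DiD- on the log2 scale after adding 1 CPM. Genes needed 10 CPM in a group, and members of the 29 gene lists 1 CPM. Exact Poisson intervals (95%) and a floor of 3 counts cover counting error only. With 1 pooled sample per group no p-value was computed. There are no replicates, so edgeR and DESeq2 gave scaling factors only. The calculation was tested on simulated data. A well was called blood-marked when at least as many markers of a blood cell type had 10 counts as did not, and no well reached that for stromal markers.

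Named are the 12 highest and 12 lowest genes by the ratio nearest 0 over all cells, each cell left out in turn and no blood-marked wells (at least 10 counts in at least 7 DiD+ or 2 DiD- cells), the genes the study names, and in each list the extremes and the highest by CPM. Some of these genes are not reported here. Further named genes were chosen after their values were seen. The members and lists were chosen with earlier results of these data known. Alternatives were other scalings, pseudocounts, filters, rule thresholds, one depth for all cells, and cells left out. Promoters are from RefSeq (GRCm38.p6). Python 3.11.15, numpy 2.4.6, pandas 2.3.3, scipy 1.17.1, matplotlib 3.10.9, R 4.3.3, edgeR 4.0.16 and DESeq2 1.42.0 were used.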

Additional observations from a re-analysis of the deposited data

How the results depend on the processing

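The 3 DiD- cells limit the precision, since 1 cell decides many DiD- levels. Of 1980 genes called higher, the number was 1232 from medians over cells, 3948 with a filter at 1 CPM, 538 at 50 CPM and 3034 when cells with 1 or fewer of the 5 genes were kept, which leaves 8 DiD+ cells and 1 DiD- cell. Of 1255 called lower, it was 2411 with spike-in scaling, 791 with 10 CPM added and 551 at 50 CPM. Other settings stayed within 1.5 times, and leaving out cell 71 gave 2557 and 1269. The higher genes were 61.2% of calls, 42% from medians over cells, 35.7% with spike-in scaling, 71.7% at 1 CPM and 49.4% at 50 CPM, and the median of all genes moved from 0.06 to -0.16, -0.45, 0.24 and -0.06. The interferon median was 1.02 from medians over cells and 0.77 without blood wells and cell 68. The proteoglycan median was 3.97 from medians over cells, 5.53 and 0.54 with 0.1 and 10 CPM added, 4.61 with a filter at 10 CPM, 4.59 with 1 or fewer genes, 4.03 with the rule at 1 count, and 2.15 to 3.92 with single cells left out. The 3.97 covers only members whose median over cells reached 1 CPM in a group, and these can be fewer than the 7 measured. The S phase median was 0.89, -1.33 and 0.97 with 1 or fewer genes, 3 or fewer and the rule at 1 count, and the cholesterol median was 1.19 with 1 or fewer. Of values past 2-fold, those turned in sign were collagens (-0.51), matricellular genes (-0.15), Gbp2 (-0.18) and Spp1 (-0.14) from medians over cells, G2/M genes (-0.20), Mcm3 (-1.51), Chuk (0.17) and Mvk (-0.17) with 3 or fewer genes, Fbxl12 (0.70), Lmnb1 (2.94), Ccnb1 (2.97) and Fosl2 (-0.12) with 1 or fewer, Ccnb1 (2.48) with the rule at 1 count, and Mcm3 with the rule at 100 counts (-0.34) or 10 CPM (-0.38). With single cells left out Cxcl2 ran from -5.15 to 2.05 (without cell 71), Lmnb1 from -2.67 to 2.37 (without cell 85) and Ccnb1 from -3.82 to 2.37 (without cell 89). Of medians under 2-fold, the retinoid list (-0.23) and the TGF-beta and BMP list (-0.31) were below 0 from medians over cells. The cause was not tested. With none of the 5 genes allowed, 3 DiD+ cells and 0 DiD- cells are left, and no ratio can be had. No paired analysis was possible because the replicate numbers follow the order of the samples and pair no cells.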

Other observations

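Housekeeping programs were level between the non-cycling groups. None of 60 cytosolic ribosomal protein genes was past 2-fold (median log2 ratio 0.10), and of 35 nuclear genes of oxidative phosphorylation 1 was higher and none lower (0.07). Glycolysis and hypoxia genes had 1 of 23 higher and 1 lower (-0.16). These highly expressed lists lie well under the 32.8% higher and 12.9% lower of all genes at 1 CPM. Lysosome and autophagy genes had 5 of 31 higher and 1 lower (0.21, and 0.0079 without the blood wells), NRF2 targets 4 of 19 and 1 (0.17, and 0.037 with 1 of 18 higher without them), and serine, one-carbon and ATF4 genes 4 of 21 and 2 (0.17).

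Of 22 Myc and ribosome biogenesis genes, 4 were higher and none lower (0.16, and -0.08 without the blood wells). ERK feedback targets had 4 of 11 higher and 2 lower (0.27), mesenchymal genes 4 of 13 and 1 (0.30), integrins and niche adhesion genes 5 of 15 and 1 (0.26), and G1 cyclins and kinases 4 of 11 and 1 (0.74), all near the shares of all genes. Chemokines and cytokines were higher in 15 of 20 and lower in 1 (2.48, and 1.56 without the blood wells), beside 32.8% and 12.9% of all genes. Of the 20, 11 had 0 DiD- counts, and their direction was set by the 1 CPM limit. MHC class II genes were higher in 6 of 6, and the 3 measured without the blood wells were also higher (3.08). All 6 had 0 DiD- counts, so this direction was set by the 1 CPM limit. Complement genes other than C1q were higher in 3 of 6 and lower in 1, which was Clu, beside 32.8% and 12.9% of all genes. Of the 6, 3 had 0 DiD- counts, and their direction was set by the 1 CPM limit.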
